A study of Mus musculus with 6 samples.

Results

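The genes described here are the cyclins, cyclin-dependent kinases (CDKs), CDK inhibitor and E2F factor that act at the passage from G1 to S phase: Ccnd1, Ccnd2, Ccnd3, Ccne1, Ccne2, Cdk2, Cdk4, Cdk6, E2f1 and Cdkn1b. They were chosen by name, and these 10 genes stand among 55378 gene IDs in the deposited table. These genes and the lists of further genes below were chosen with earlier results of these data known. The libraries came from mouse blastocysts collected on day 5 after the zygotes had been microinjected with siRNA-Eif4a3, which targets the mRNA of the exon junction complex helicase EIF4A3, or with siRNA-NC, the negative control siRNA. Each group had 3 libraries, each a pool of 5 embryos prepared with Smart-seq2, a full-length cDNA method, from polyA RNA. All embryos of both groups were microinjected, and the labels used here give neither strain nor sex. Since a pool mixes 5 embryos and the labels do not say that pools of one group had separate parents, the p-values measure only the spread between these samples.

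In G1, D-type cyclins bind CDK4 and CDK6, and these kinases phosphorylate the retinoblastoma protein, which otherwise holds E2F factors inactive. E2F factors then drive transcription of cyclin E genes and of genes for DNA replication, and cyclin E with CDK2 completes the phosphorylation and starts S phase. The inhibitor p27, encoded by Cdkn1b, binds cyclin-CDK complexes and holds them inactive. Mouse pluripotent cells are known for a short G1 phase and strong cyclin E and CDK2 activity.

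The summed counts per library lay between 15607227 and 18697754. Eif4a3 itself had 16.03, 36.2 and 56.2 CPM (counts scaled to library size) in the siRNA-Eif4a3 libraries, against 302, 255 and 202 CPM in the siRNA-NC libraries. It was 7.002-fold lower (log2 fold change −2.81 with a standard error of 0.44; edgeR adjusted p 0.00512), so the target was lower in the libraries labelled for it; by its most counted block alone the log2 fold change was −1.52 (edgeR adjusted p 0.0403). The summed level of 7 trophectoderm markers ranged from 477 to 2103 CPM in siRNA-Eif4a3 and from 2129 to 5579 CPM in siRNA-NC, and 3 of the 6 tested were called lower. Krt8 and Krt18 made up most of that sum. Krt8 (245 to 1143 CPM in siRNA-Eif4a3, 719 to 2633 CPM in siRNA-NC), Cdx2 and Elf5 overlapped between groups. Krt18, Eomes, Gata3 and Tead4 did not. The summed level of 6 epiblast and inner cell mass markers ranged from 135 to 166 CPM in siRNA-Eif4a3 and from 363 to 522 CPM in siRNA-NC, with 2 of 6 called lower. Tdgf1, at 2.91 to 6.14 CPM in siRNA-Eif4a3 and 115 to 228 CPM in siRNA-NC, made up much of the gap. Pou5f1, Nanog, Klf2 and Esrrb overlapped between groups, while Tdgf1 and Sox2 did not. The summed level of 5 primitive endoderm markers ranged from 65.3 to 79.4 CPM in siRNA-Eif4a3 and from 251 to 268 CPM in siRNA-NC, with 2 of 4 called lower. Most of that gap was Sparc (8.06 to 17.1 CPM in siRNA-Eif4a3, 167 to 192 CPM in siRNA-NC), while Gata6 overlapped between groups (52.3 to 67.9 CPM in siRNA-Eif4a3, 61.2 to 68.1 CPM in siRNA-NC). Of 7 cumulus and granulosa cell markers, 6 (Has2, Ptx3, Tnfaip6, Fshr, Amh and Cyp19a1) had 0 counts in all 6 libraries. The summed level of 4 blood markers ranged from 2.67 to 4.94 CPM in siRNA-Eif4a3 and from 5.84 to 33.9 CPM in siRNA-NC, without overlap, and 1 of 2 tested (Hbb-bs) was called lower. That of 5 sperm markers was 0.969 to 3.31 CPM in siRNA-Eif4a3 and 1.04 to 2.43 CPM in siRNA-NC, and that of 5 fibroblast markers 1.69 to 8.48 CPM in siRNA-Eif4a3 and 1.89 to 9.97 CPM in siRNA-NC. In bulk samples such as these, fewer cells of a type and less RNA per cell cannot be told apart, and the part of the lineage and blood markers in the results below was not tested.

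Ccnd3 and Cdk2 were the members that fell in the siRNA-Eif4a3 embryos, 9.2-fold and 3.26-fold. Of the 10 genes, 8 had enough counts for the test, 2 of these were called lower at an adjusted p under 0.05, 0 were called higher, and 6 did not pass. Of all 15619 tested genes, 13.1% were called, 7.52% higher and 5.56% lower. The groups did not overlap, with siRNA-Eif4a3 lower, in 4 of the 8 tested members (Ccnd3, Cdk2, Ccne1 and Cdk6), against 16.4% of all tested genes; they lay apart with siRNA-Eif4a3 higher in 0 members, against 20.1% of all tested genes, and 36.4% lay apart in either direction. The median log2 fold change was −0.94 over the 8 members and 0.03 over all tested genes.

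**Figure D1:**
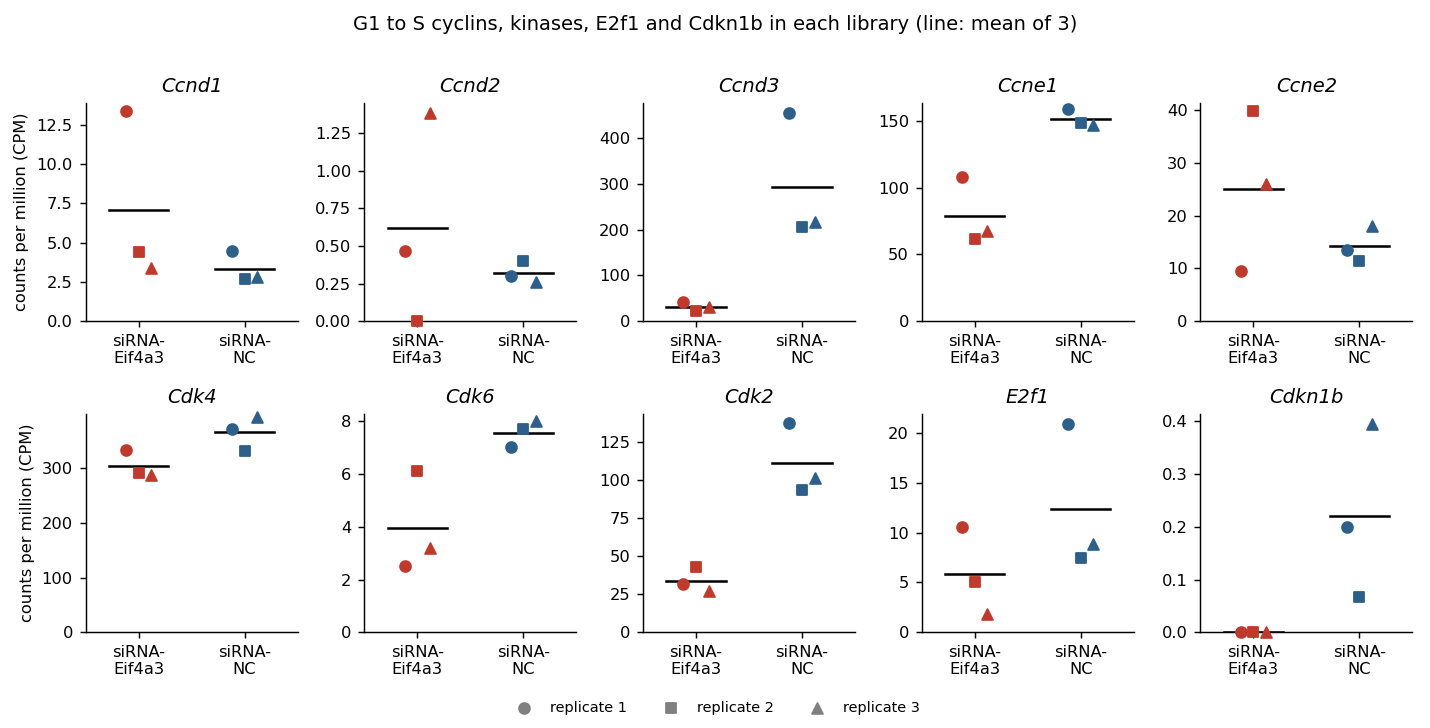
Level of each of the 10 genes in each library, in CPM on a linear axis that starts at 0, with siRNA-Eif4a3 on the left and siRNA-NC on the right; symbols mark the replicate number and the line is the mean of 3 libraries. The panels of Ccnd3, Cdk2, Ccne1 and Cdk6 show every siRNA-Eif4a3 library below every siRNA-NC library, and Cdkn1b lies at 0 in all 3 siRNA-Eif4a3 libraries.

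Among the D-type cyclins, Ccnd3 (ENSMUSG00000034165, chr17:47505051-47599691, plus strand, GRCm38) carried most of the signal in siRNA-NC embryos. Ccnd3 had 42.6, 22.6 and 30.2 CPM in siRNA-Eif4a3, against 456, 205 and 218 CPM in siRNA-NC. Every siRNA-Eif4a3 library was far below every siRNA-NC library, and siRNA-NC replicate 1 stood above the other controls. The mean was 31.8 ± 10.1 CPM in siRNA-Eif4a3 and 293 ± 141 CPM in siRNA-NC (SD, n = 3 each), so 10.9% of the siRNA-NC level was left. The log2 fold change was −3.20 (SE 0.41; adjusted p 0.00257 by edgeR's quasi-likelihood test with Benjamini-Hochberg adjustment over all tested genes). With any 1 library left out it lay between −3.52 and −2.74, and the gene was called each time.

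The annotation gives Ccnd3 a distant first exon and a start nearer to the coding part. Overlapping exons were merged into blocks, numbered 5′ to 3′, and blocks 1 to 4 of Ccnd3 together had 4, 6 and 4 counts in siRNA-Eif4a3 and 19, 10 and 12 counts in siRNA-NC. Blocks 5, 7 and 8 held the rest, 99.6%, 98.4% and 99.2% of the gene's count in siRNA-Eif4a3 and 99.8%, 99.6% and 99.6% in siRNA-NC. These 3 blocks were 8.02-fold, 9.02-fold and 9.66-fold lower in siRNA-Eif4a3. Another gene, Bysl, overlaps 33.3% of the bases of block 8, while blocks 5 and 7 have no overlap. Nearly all counts thus lay downstream of the near start. The RefSeq promoter window of that start (chr17:47593217-47593516, plus strand, GRCm38.p6; 250 bases before and 50 after the start) is shown because it precedes the blocks that hold the counts, with GC boxes (GGGCGG, either strand) in capitals.
Ccnd3 near promoter: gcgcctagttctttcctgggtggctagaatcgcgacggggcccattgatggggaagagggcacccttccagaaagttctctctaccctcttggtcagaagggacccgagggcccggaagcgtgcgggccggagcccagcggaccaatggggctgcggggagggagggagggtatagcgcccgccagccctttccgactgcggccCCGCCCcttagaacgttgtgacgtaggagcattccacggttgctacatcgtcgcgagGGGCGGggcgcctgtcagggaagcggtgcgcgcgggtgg
A GC box was present in 35.7% of 32851 such windows, so its presence here is common.

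Ccnd1 (ENSMUSG00000070348, chr7:144929931-144939925, minus strand), the D-type cyclin that mitogens induce in many somatic cells, was far less abundant. Ccnd1 had 13.4, 4.42 and 3.37 CPM in siRNA-Eif4a3, against 4.48, 2.66 and 2.82 CPM in siRNA-NC. The groups overlapped, and siRNA-Eif4a3 replicate 1 alone stood high. The log2 fold change of 1.09 (standard error 0.58) did not pass (adjusted p 0.235 by edgeR), and without siRNA-Eif4a3 replicate 1 it was 0.19 (adjusted p 0.837). Another gene, LTO1, overlaps 23.4% of the exon bases of Ccnd1, and in the overlapping stretch these counts do not tell them apart. That stretch lies in block 5, while blocks 1 to 4 have no overlap.

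Ccnd2 (ENSMUSG00000000184, chr6:127125162-127152193, minus strand), the remaining D-type cyclin, was near the limit of detection. It had 10, 0 and 23 counts in siRNA-Eif4a3, against 6, 6 and 4 counts in siRNA-NC, and it was left out of the test for low counts. The count of 0 in siRNA-Eif4a3 replicate 2 allows a level of up to 0.182 CPM (3 counts). The siRNA-Eif4a3 libraries lay on both sides of the siRNA-NC libraries.

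The makeup of the D-type cyclin signal differed between the groups in every library. With levels divided by exon length, Ccnd3 made up 62.7%, 73.3% and 80.0% of the summed D-type cyclin level in siRNA-Eif4a3, against 98.1%, 97.5% and 97.5% in siRNA-NC. Ccnd1 made up 36.6%, 26.7% and 16.6% in siRNA-Eif4a3, against 1.80%, 2.36% and 2.36% in siRNA-NC. Neither share overlapped between groups, and the exact two-sided permutation p was 0.1 for each, the smallest that 3 libraries against 3 allow. The summed level was 7.74, 3.51 and 4.31 CPM per kilobase in siRNA-Eif4a3, against 52.9, 23.9 and 25.4 CPM per kilobase in siRNA-NC (exact p 0.1). Ccnd1 did not pass its own test, and Ccnd3, which fell, is part of the same sum.

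**Figure D2:**
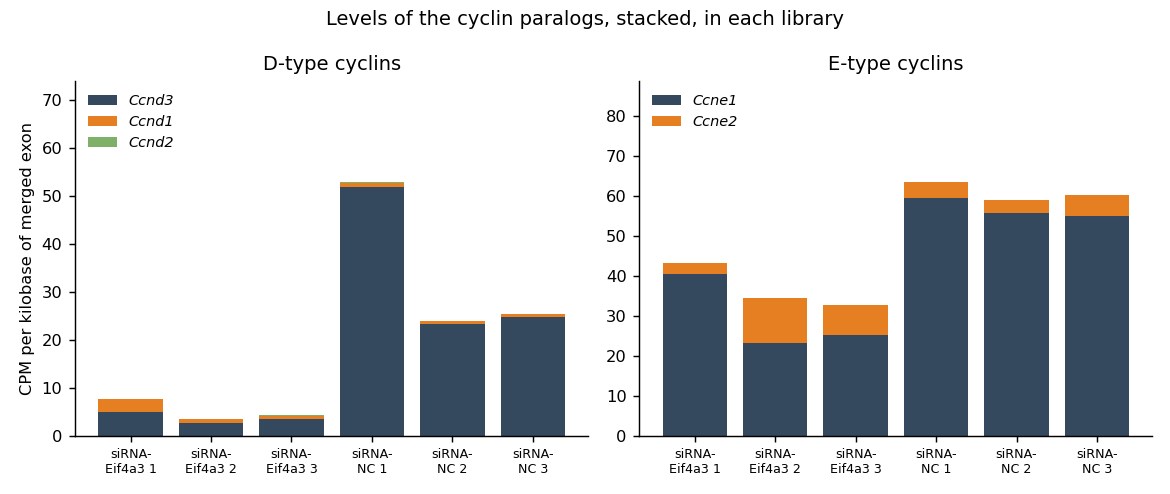
Stacked levels of the D-type and E-type cyclins in each library, in CPM per kilobase of merged exon, with the 3 siRNA-Eif4a3 libraries left of the 3 siRNA-NC libraries. Ccnd3 fills nearly the whole D-type bar in siRNA-NC, where the bars reach 23.9 to 52.9, and the siRNA-Eif4a3 bars stop between 3.51 and 7.74; Ccne1 is the larger part of every E-type bar.

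Of the partners of D-type cyclins, Cdk4 (ENSMUSG00000006728, chr10:127063534-127067920, plus strand) was the most abundant of the 10 genes per kilobase in both groups. Cdk4 had 333, 292 and 287 CPM in siRNA-Eif4a3, against 373, 332 and 394 CPM in siRNA-NC. The groups overlapped by a narrow margin. The log2 fold change of −0.27 (standard error 0.26) did not pass (adjusted p 0.527 by edgeR). Its 6 blocks were between 1.09-fold and 1.31-fold lower in siRNA-Eif4a3, and Tspan31 overlaps 19.7% of its exon bases. The Cdk4 promoter window (RefSeq, chr10:127063285-127063584, plus strand, GRCm38.p6) is shown because it holds the E-box CACGTG 4 times, in capitals, as only 8 of the 32851 windows do 4 or more times.
Cdk4 promoter: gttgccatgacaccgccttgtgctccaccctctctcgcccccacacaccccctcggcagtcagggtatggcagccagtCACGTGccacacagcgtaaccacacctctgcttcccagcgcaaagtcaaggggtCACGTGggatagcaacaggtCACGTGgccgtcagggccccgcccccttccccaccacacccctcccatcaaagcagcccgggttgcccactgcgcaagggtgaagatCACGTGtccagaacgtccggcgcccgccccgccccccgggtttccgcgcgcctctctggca
The E-box CACGTG reads the same on both strands and is the sequence that MYC proteins are known to bind; it stood in 7.15% of all windows, and among the members' windows the only other match was 1 in Cdk6.

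Cdk6 (ENSMUSG00000040274, chr5:3341485-3531008, plus strand), the other D-type cyclin kinase, was a minor form here. Cdk6 had 2.53, 6.12 and 3.19 CPM in siRNA-Eif4a3, against 7.01, 7.70 and 8.01 CPM in siRNA-NC. All siRNA-Eif4a3 libraries were lower, yet the log2 fold change of −0.94 (standard error 0.45) did not pass (adjusted p 0.192 by edgeR). Counts in siRNA-NC lay mostly in the last 3 of 9 blocks. Blocks 7 to 9 had 48, 70 and 38 counts in siRNA-Eif4a3, against 127, 116 and 116 counts in siRNA-NC. Blocks 1 to 6 had 6, 31 and 15 counts in siRNA-Eif4a3, against 14, 0 and 6 counts in siRNA-NC, and there the groups overlapped. As a share of the gene, blocks 1 to 6 held 11.1%, 30.7% and 28.3% in siRNA-Eif4a3, against 9.93%, 0% and 4.92% in siRNA-NC (exact p 0.1), from few counts; this split was chosen after the values were seen. Cdk4 made up 99.7% ± 0.160 of the summed Cdk4 and Cdk6 level per kilobase in siRNA-Eif4a3 and 99.5% ± 0.0512 in siRNA-NC (SD, n = 3 each, exact p 0.3).

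Among the E-type cyclins, which activate CDK2, Ccne1 (ENSMUSG00000002068, chr7:38097984-38107534, minus strand) was the more abundant in all 6 libraries. Ccne1 had 108, 61.7 and 67.3 CPM in siRNA-Eif4a3, against 159, 148 and 147 CPM in siRNA-NC. The groups did not overlap, and the siRNA-NC libraries lay close together at 151 ± 6.50 CPM, against 79.0 ± 25.2 CPM in siRNA-Eif4a3 (SD, n = 3 each). The level was 1.91-fold lower (log2 fold change −0.94 with a standard error of 0.30), and it just missed the threshold (adjusted p 0.0631 by edgeR). It passed without siRNA-Eif4a3 replicate 1 (log2 fold change −1.27, adjusted p 0.0185 by edgeR) and in DESeq2 (adjusted p 0.0261). All 11 blocks were between 1.82-fold and 2.28-fold lower, so the difference was even along the gene.

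Ccne2 (ENSMUSG00000028212, chr4:11191351-11204779, plus strand), the second E-type cyclin, had 9.42, 39.9 and 26.0 CPM in siRNA-Eif4a3, against 13.5, 11.4 and 18.0 CPM in siRNA-NC. The groups overlapped: siRNA-Eif4a3 replicates 2 and 3 were above all siRNA-NC libraries and replicate 1 was below them. The log2 fold change of 0.81 (standard error 0.48) did not pass (adjusted p 0.287 by edgeR), and with single libraries left out it ranged from 0.31 without siRNA-Eif4a3 replicate 2 to 1.16 without siRNA-Eif4a3 replicate 1. The last block, 13, which holds the end of the gene, had 2.86, 6.30 and 5.36 CPM in siRNA-Eif4a3 and 4.38, 4.45 and 4.79 CPM in siRNA-NC. Blocks 1 to 12 had 6.56, 33.6 and 20.6 CPM in siRNA-Eif4a3 and 9.15, 6.91 and 13.3 CPM in siRNA-NC. The spread between the siRNA-Eif4a3 libraries thus lay mostly in the body of the gene, a split chosen after the values were seen; Ints8 overlaps 17.4% of the exon bases.

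Per kilobase, the summed E-type cyclin level was 43.2, 34.6 and 32.7 CPM in siRNA-Eif4a3, against 63.5, 58.9 and 60.3 CPM in siRNA-NC (exact p 0.1). Every siRNA-Eif4a3 library was lower. Ccne2 made up 6.23%, 33.0% and 22.7% of it in siRNA-Eif4a3, against 6.10%, 5.51% and 8.57% in siRNA-NC (exact p 0.2), and here siRNA-Eif4a3 replicate 1 lay among the siRNA-NC libraries.

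Cdk2 (ENSMUSG00000025358, chr10:128697939-128705031, minus strand), the kinase of cyclin E and cyclin A, fell in the siRNA-Eif4a3 embryos. It had 31.9, 43.1 and 27.1 CPM in siRNA-Eif4a3, against 138, 93.7 and 101 CPM in siRNA-NC. The groups were well apart, at 34.0 ± 8.20 CPM in siRNA-Eif4a3 and 111 ± 23.5 CPM in siRNA-NC (SD, n = 3 each). The log2 fold change was −1.71 (SE 0.31; edgeR adjusted p 0.00804), and it lay between −1.91 and −1.54 with any 1 library left out, called each time.

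The drop of Cdk2 was uneven along the gene. Blocks 1 and 2 were 1.96-fold and 1.90-fold lower in siRNA-Eif4a3, while blocks 3, 4 and 5 were 8.73-fold, 5.19-fold and 4.77-fold lower. The count of the last block was 92.8%, 62.5% and 65.9% of that of the first in siRNA-Eif4a3, against 148%, 224% and 171% in siRNA-NC (exact p 0.1). Over 11157 genes, the difference between groups in the log2 ratio of the last to the first counted block (siRNA-Eif4a3 minus siRNA-NC) had a median of −0.17 and quartiles of −0.67 and 0.18. Blocks with few counts were passed over, so the first counted block here was not always the first with any count. For Cdk2 the difference was −1.29, and 9.82% of the genes had one as low. For Ccnd3 it was −1.25, but there the first counted block was block 4, with 4, 1 and 4 counts in siRNA-Eif4a3 and 17, 7 and 11 counts in siRNA-NC, and blocks 5, 7 and 8, with nearly all of the counts, were lower by like folds. The difference was −0.95 for Ccne2 and −0.69 for E2f1, also from few counts in the first block. It was between −0.08 and −0.02 for Ccnd1, Cdk4 and Ccne1. For Cdk6 it was −0.23, but that ratio ran from block 7 to block 9 only. The few counts in blocks 1 to 6 of Cdk6, given above as a share of the gene, did not enter it. The Cdk2 split and this ratio were chosen after the values were seen, and the part of RNA quality or priming in them was not tested.

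Block 3 of Cdk2 is an exon of 144 bases, or 48 codons, at chr10:128699976-128700119, coding exon 6 of the transcript Cdk2-202, which the other coding transcript lacks. Rodents are known to make a longer CDK2 protein with this insert. The exon is shown from the GENCODE vM21 transcript (GRCm38, minus strand) in capitals, with 15 bases of the neighbouring exons on each side in lower case, because it was the part of Cdk2 with the steepest drop.
Cdk2 variable exon: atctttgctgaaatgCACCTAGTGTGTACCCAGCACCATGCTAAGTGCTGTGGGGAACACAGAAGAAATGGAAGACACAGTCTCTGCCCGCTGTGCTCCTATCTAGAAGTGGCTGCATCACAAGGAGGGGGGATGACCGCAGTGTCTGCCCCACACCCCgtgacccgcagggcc
The exon had 37, 21 and 13 counts in siRNA-Eif4a3, against 291, 113 and 169 counts in siRNA-NC. The exon before it had 146, 161 and 102 counts in siRNA-Eif4a3, against 403, 165 and 226 counts in siRNA-NC. The exon after it had 89, 67 and 46 counts in siRNA-Eif4a3, against 470, 243 and 268 counts in siRNA-NC. Relative to the mean of these neighbours, the exon stood at 31.5%, 18.4% and 17.6% in siRNA-Eif4a3, against 66.7%, 55.4% and 68.4% in siRNA-NC (22.5% ± 7.80 and 63.5% ± 7.07, SD, n = 3 each, exact p 0.1). The groups did not overlap in this ratio, but the exon and the ratio were chosen after the values were seen, so this p-value is descriptive only. The neighbours also differed unequally. The exon before had a mean count of 136 in siRNA-Eif4a3 and 265 in siRNA-NC, and the exon after had 67.3 and 327. The ratio therefore also carries the uneven drop along the gene given above. In edgeR's test of block usage within genes, however, block 3 had a log2 change of −0.97 and did not pass (unadjusted p 0.00264, adjusted p 0.516). Over the 8 tested members 0 of 58 blocks passed that test, against 0.0785% of all 112044 blocks. In its gene-level form 0 of the 8 genes passed, against 0.597% of 13063 genes. Of the 58 blocks, 2 (Cdk2 block 3 and Cdk6 block 3) had an unadjusted p under 0.05 in the edgeR test, and neither passed after adjustment. The Cdk2 promoter window (RefSeq, chr10:128705002-128705301, minus strand, GRCm38.p6) is shown beside that of Ccnd3, as the 2 genes that fell, again with GC boxes on either strand in capitals.
Cdk2 promoter: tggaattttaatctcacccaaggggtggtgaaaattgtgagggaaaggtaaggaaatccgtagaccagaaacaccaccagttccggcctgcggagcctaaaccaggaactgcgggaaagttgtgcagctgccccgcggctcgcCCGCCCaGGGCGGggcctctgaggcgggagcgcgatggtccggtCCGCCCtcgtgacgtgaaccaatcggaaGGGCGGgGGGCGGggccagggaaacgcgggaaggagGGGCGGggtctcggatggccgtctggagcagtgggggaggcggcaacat
GC boxes stood in 7 of the 8 promoter windows that matched 7 of the members, CCAAT on either strand in 3 of 8 (37.4% of all windows), and the E2F motif (TTTCGCGC or TTTGGCGC, either strand) in 0 of 8 (0.813% of all windows). With so rare a motif, 0 of 8 tells little, and other forms of E2F site were not sought.

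**Figure D3:**
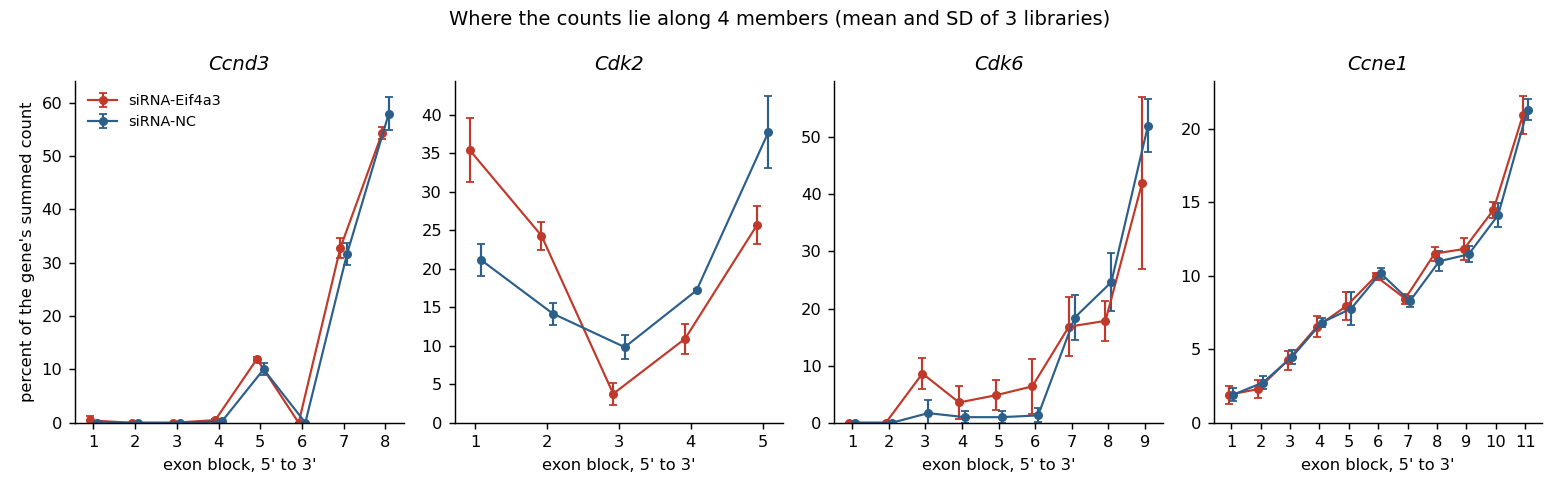
Share of each gene's count in each merged exon block, 5′ to 3′, as mean and SD of 3 libraries per group, for 4 members. In Cdk2 the siRNA-Eif4a3 curve lies above the siRNA-NC curve in blocks 1 and 2 and below it in blocks 3 to 5, where the levels were 4.77-fold to 8.73-fold lower.

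E2f1 (ENSMUSG00000027490, chr2:154559407-154569892, minus strand), the transcription factor that the retinoblastoma protein restrains, varied widely within both groups. E2f1 had 10.6, 5.03 and 1.81 CPM in siRNA-Eif4a3, against 20.9, 7.44 and 8.86 CPM in siRNA-NC. The groups overlapped, because siRNA-Eif4a3 replicate 1 exceeded siRNA-NC replicates 2 and 3. The log2 fold change of −1.09 (standard error 0.63) did not pass (adjusted p 0.272 by edgeR). It was −1.91 without siRNA-Eif4a3 replicate 1 and −0.48 without siRNA-NC replicate 1, the ends of its range with single libraries left out.

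Cdkn1b (ENSMUSG00000003031, chr6:134920401-134925513, plus strand), which encodes p27, was hardly detected. It had 0 counts in all 3 siRNA-Eif4a3 libraries, against 4, 1 and 6 counts in siRNA-NC, and it was left out of the test for low counts. Against the floor of 3 counts over the siRNA-Eif4a3 group (0.0551 CPM), the pooled siRNA-NC level of 0.218 CPM makes it at least 3.96-fold lower, if the 11 siRNA-NC counts are taken as exact. That bound rests on few counts: it was 2.41-fold without siRNA-Eif4a3 replicate 1, 2.58-fold without siRNA-NC replicate 3, which holds 6 of the 11 counts, and 5.14-fold without siRNA-NC replicate 2. Tested without the filter on low counts, Cdkn1b did not pass (adjusted p 0.129 by edgeR).

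Per kilobase of merged exon, the order of levels in siRNA-Eif4a3 was Cdk4 (93.6 ± 7.87 CPM per kilobase), Ccne1 (29.7 ± 9.48), Ccne2 (7.18 ± 4.37), Cdk2 (5.47 ± 1.32), Ccnd3 (3.62 ± 1.15), E2f1 (1.84 ± 1.41), Ccnd1 (1.497 ± 1.17), Cdk6 (0.282 ± 0.137), Ccnd2 and Cdkn1b. In siRNA-NC it was Cdk4 (113 ± 9.67 CPM per kilobase), Ccne1 (56.8 ± 2.44), Ccnd3 (33.4 ± 16.1), Cdk2 (17.8 ± 3.79), Ccne2 (4.09 ± 0.977), E2f1 (3.94 ± 2.35), Ccnd1 (0.705 ± 0.214), Cdk6 (0.541 ± 0.0364), Cdkn1b and Ccnd2 (SD, n = 3 each). Ccnd3 thus stood behind Cdk4, Ccne1, Ccne2 and Cdk2 in siRNA-Eif4a3, against Cdk4 and Ccne1 alone in siRNA-NC. In the siRNA-Eif4a3 order, the ranges of mean ± 1 SD overlapped for each pair of neighbours from Ccne2 to Cdk6. They also overlapped for Ccnd2 and Cdkn1b, so the order within these pairs is not resolved. In the siRNA-NC order the ranges overlapped for Ccnd3 and Cdk2, Ccne2 and E2f1, Ccnd1 and Cdk6, and Cdkn1b and Ccnd2.

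**Figure D4:**
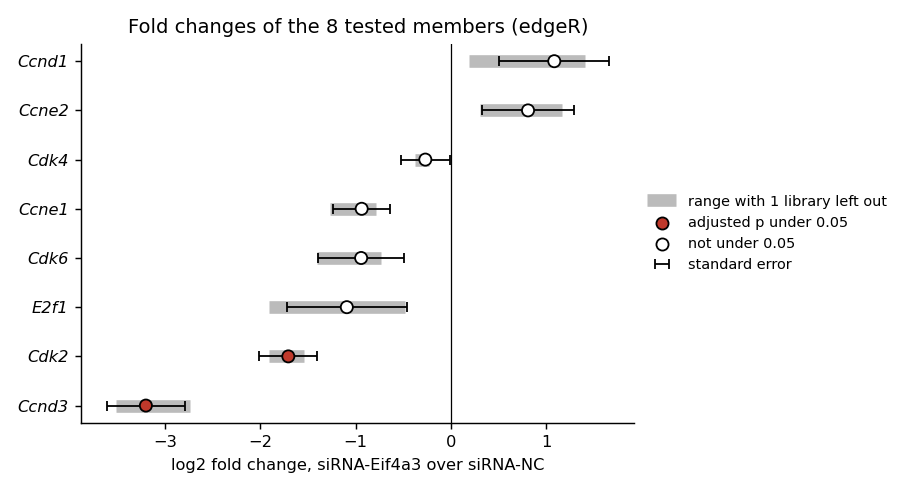
Log2 fold changes of the 8 tested members, siRNA-Eif4a3 over siRNA-NC, with the standard error as a black bar and the range with 1 library left out in grey; filled points had an adjusted p under 0.05. Ccnd3 at −3.20 and Cdk2 at −1.71 are filled, and the other 6 lie between −1.09 and 1.09.

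Of 49 further regulators of the G1 to S passage, 46 were tested; 3 rose (Cdkn1c, Cdkn2b and Tfdp2), 4 fell (Mybl2, Myc, Mycn and E2f8) and 39 did not pass, with a median log2 fold change of −0.22. These are 6.52% higher and 8.70% lower, close to the 7.52% and 5.56% of all tested genes. Both risers among the inhibitors were low in siRNA-NC. Cdkn1c, which encodes the p57 inhibitor of cyclin-CDK complexes, had 21.2 ± 8.22 CPM in siRNA-Eif4a3 and 2.68 ± 1.06 CPM in siRNA-NC (log2 fold change 2.97, adjusted p 0.00536 by edgeR); Gm44732 overlaps 30.7% of its exon bases. Cdkn2b, which encodes the p15 inhibitor of CDK4 and CDK6, had 8.71 ± 3.33 CPM in siRNA-Eif4a3 and 1.01 ± 0.228 CPM in siRNA-NC (log2 fold change 3.09, adjusted p 0.00581 by edgeR). Both kept their call with any 1 library left out. Of the other 4 inhibitors listed, Cdkn2a had too few counts, and 3 did not pass. Among them Cdkn1a, which encodes the p53-induced inhibitor p21, ranged from 348 to 580 CPM in siRNA-Eif4a3 and from 225 to 321 CPM in siRNA-NC (log2 fold change 0.78, adjusted p 0.114 by edgeR). The groups did not overlap in Cdkn1a.

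Mybl2, which encodes a MYB factor, had 23.6 ± 8.16 CPM in siRNA-Eif4a3 and 144 ± 70.5 CPM in siRNA-NC (log2 fold change −2.61, adjusted p 0.00535 by edgeR), and kept its call with any 1 library left out. Mycn had 0.242 ± 0.321 CPM in siRNA-Eif4a3 and 5.27 ± 2.05 CPM in siRNA-NC (log2 fold change −4.46, adjusted p 0.0155 by edgeR), and lost its call without siRNA-Eif4a3 replicate 3 (adjusted p 0.0513 by edgeR); without siRNA-Eif4a3 replicate 2 its log2 fold change was −6.43. Myc, the other MYC factor that fell, had 5.04 ± 3.00 CPM in siRNA-Eif4a3 and 19.7 ± 5.95 CPM in siRNA-NC (log2 fold change −1.97, adjusted p 0.0309 by edgeR). Tfdp2, which encodes a dimer partner of E2F factors, had 56.5 ± 14.1 CPM in siRNA-Eif4a3 and 23.2 ± 5.71 CPM in siRNA-NC (log2 fold change 1.28, adjusted p 0.0294 by edgeR). Myc kept its call in 1 of the 6 fits with 1 library left out, without siRNA-Eif4a3 replicate 3 (otherwise up to adjusted p 0.0969), and Tfdp2 in 1 of 6, without siRNA-Eif4a3 replicate 1 (otherwise up to 0.105). E2f8, a repressive E2F, was named after its value was seen (log2 fold change −1.94, adjusted p 0.0491 by edgeR, called in 1 of 6 fits with a library left out, without siRNA-Eif4a3 replicate 2 at −2.64, and otherwise up to 0.127). None of the 3 pocket proteins, the retinoblastoma family, passed: Rb1 had a log2 fold change of 1.12 (adjusted p 0.153 by edgeR) and Rbl1 of −0.91 (adjusted p 0.117). None of the 10 listed parts and regulators of ubiquitin ligases passed either. Named after their values were seen, the nearest were Fzr1, an activator of the anaphase-promoting complex (log2 fold change −1.56, adjusted p 0.0505 by edgeR, called in 2 of 6 fits with a library left out, 0.0417 to 0.197), and Fbxo5, an inhibitor of it (−1.06, adjusted p 0.0528).

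Of 35 target genes of E2F factors, 10 fell, 1 rose and 24 did not pass in the siRNA-Eif4a3 embryos; 28 had a log2 fold change below 0, and the median was −0.73. The share called lower was 28.6%, against 5.56% of all tested genes, and the share called higher 2.86%, against 7.52%. Over all 15619 tested genes 7617 lay below 0, with a median of 0.03. The list was chosen with earlier results of these data known, so these shares describe the listed genes and are no independent test of E2F targets. The 10 were Mcm2, Mcm3, Mcm4, Mcm5 and Mcm6 of the replication helicase, Cdc6 and Cdc45, which load or activate it, Uhrf1 and Dnmt1, which maintain DNA methylation, and the chromatin assembly gene Chaf1b. Mcm4 had 44.5 ± 6.62 CPM in siRNA-Eif4a3 and 140 ± 10.02 CPM in siRNA-NC (log2 fold change −1.65, adjusted p 0.00566 by edgeR) and kept its call with any 1 library left out. Uhrf1 (log2 fold change −2.73, adjusted p 0.0186 by edgeR, −3.72 without siRNA-Eif4a3 replicate 2) lost its call without siRNA-Eif4a3 replicate 3 (adjusted p 0.0598) or siRNA-NC replicate 1 (0.0576). Dnmt1 (log2 fold change −2.04, adjusted p 0.0178 by edgeR) and Mcm5 (−1.66, 0.0213) lost theirs without siRNA-Eif4a3 replicate 2 or 3 or siRNA-NC replicate 1 or 2, with adjusted p up to 0.0664 and 0.0815. Mcm6 had 42.9 ± 28.4 CPM in siRNA-Eif4a3 and 140 ± 14.9 CPM in siRNA-NC (log2 fold change −1.70, adjusted p 0.0280 by edgeR) and was called only without siRNA-Eif4a3 replicate 1 (−2.44) of the 6 fits with a library left out (otherwise up to adjusted p 0.0904). Tyms, which makes thymidylate, was the riser, with 856 ± 285 CPM in siRNA-Eif4a3 and 360 ± 52.8 CPM in siRNA-NC (log2 fold change 1.25, adjusted p 0.0331 by edgeR), likewise called only without siRNA-Eif4a3 replicate 1 (otherwise up to 0.102). The count of 10 lower genes rested on single libraries: it was 13 without siRNA-Eif4a3 replicate 1, 2 without replicate 2 and 1 without replicate 3 of that group, and 1, 2 and 6 without siRNA-NC replicates 1, 2 and 3. Pcna, the replication clamp, did not pass (log2 fold change 0.17, adjusted p 0.718 by edgeR).

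**Figure D5:**
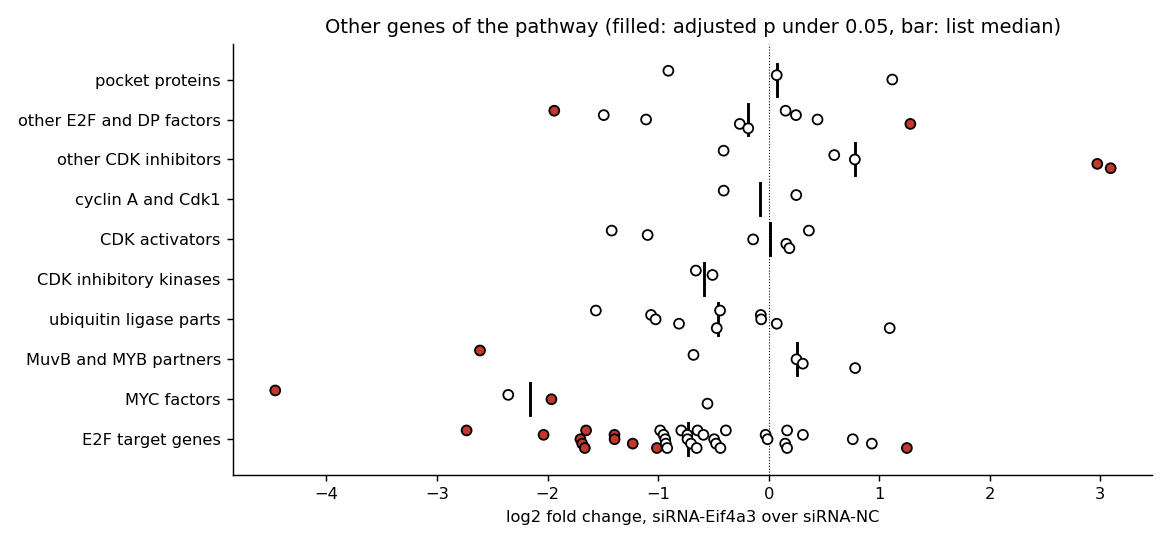
Log2 fold changes, siRNA-Eif4a3 over siRNA-NC, of the tested genes of each group of further regulators and of the E2F targets; each point is a gene, filled where the adjusted p was under 0.05, and the bar is the median. The E2F targets have 28 of 35 points below 0, and the filled points of the other CDK inhibitors lie at 2.97 and 3.09.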

How the data were processed

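The submitters collected blastocysts on day 5 after zygote injection and made paired-read libraries of 150 bases. Per the submitters' processing notes, reads were checked with FastQC 0.11.9, trimmed with fastp 0.20.1, aligned with STAR 2.7.6a and counted with featureCounts 2.0.1; R 4.1.1 and DESeq2 1.34.0 are also named. Per the file headers, the authors deposited raw counts of read pairs per annotated exon (GENCODE vM29 lifted to GRCm38), counting a pair in each exon it overlapped, with strand setting 2. Smart-seq2 does not mark strand, so pairs of the other orientation are missing from these counts, and overlapping genes cannot be told apart. The counts were taken as deposited.

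Of 842173 lines, 449500 were distinct exons. Within a gene, overlapping exons were joined into 291424 blocks; each block took its most counted line, and a gene took the sum of its blocks. A pair across a junction counts in more than 1 block, so sums exceed the pairs sequenced. Of 55378 gene IDs, 55102 matched a symbol. The planned tests assumed gene counts. Library totals ranged from 15607227 to 18697754, and low counts carry the largest counting error; floors cover counting error only.

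Genes were tested with edgeR 4.0.16 in R 4.3.3 (filterByExpr, TMM, glmQLFit and glmQLFTest, two-sided), with Benjamini-Hochberg adjustment over 15619 genes and a threshold of 0.05. CPM values use the effective library size. Block usage was tested with edgeR's diffSpliceDGE on blocks with at least 10 counts. Shares and ratios per library were compared with exact two-sided permutation tests in SciPy 1.17.1, whose smallest p is 0.1. Functions were tested on simulated data. Alternatives were RLE size factors, library totals alone, no filter on low counts, a 5 CPM filter, DESeq2 1.42.0, summing all exon lines, the most counted block, a replicate block, and leaving out each library.

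The members and lists were chosen with earlier results of these data known. All 10 members are named, with the 6 genes of each list with the smallest unadjusted p and the target; other genes were named after their values were seen. Lin54 was not analysed here, and Skp1 is listed as Skp1a. Motifs were sought on both strands.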

Additional observations from a re-analysis of the deposited data

How the results depend on the processing

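Ccnd3 and Cdk2 were called lower, in the same direction, under every alternative run, with log2 fold changes of −3.52 to −2.74 and of −2.19 to −1.47. Ccne1 kept its direction but passed in DESeq2 (−0.94, adjusted p 0.0261), with the replicate block (−0.98, adjusted p 0.0360 by edgeR) and without siRNA-Eif4a3 replicate 1; with single libraries left out it ranged from −1.27 to −0.79 and the call changed only there. No member, nor any list gene given with its alternatives, changed direction; among the 81 tested list genes, 13 that did not pass took both signs as single libraries were left out. Leaving out 1 library gave 550 to 1224 genes called higher (1174 with all) and 336 to 1130 lower (869 with all), 2 to 3 other regulators lower (4 with all), and 0 to 2 E2F targets higher and 1 to 13 lower (1 and 10 with all). Without the filter on low counts 2089 genes were called higher and 1518 lower, DESeq2 called 1829 and 1490, and library totals alone gave 548 lower. A filter of 5 CPM gave 2 other regulators lower and 2 E2F targets higher, DESeq2 gave 7 and 2, and library totals alone gave 3 E2F targets lower. Without division by exon length, Ccnd1 made up 16.6% of D-type cyclins in siRNA-Eif4a3 and 1.18% in siRNA-NC, Ccnd3 81.8% and 98.7%, Cdk4 98.7% and 97.96% of the kinases, and Cdk6 1.30% and 2.04%; in siRNA-NC Ccne1 made up 91.4% and Ccne2 8.64% of E-type cyclins. The cause of these moves was not tested. Same-numbered libraries of the 2 groups share no pairing in the labels, and the correlations of their deviations were 0.269, 0.00261 and 0.1002, so the fit with the replicate block is an alternative only; with it 3 members were called lower. siRNA-Eif4a3 replicate 3 correlated best with siRNA-NC replicate 2 (0.186). The bound for Cdkn1b, with single libraries left out, was added after the values were seen (2.41-fold to 5.14-fold). Depth limits Ccnd2 and Cdkn1b most.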

Other observations

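In the gene-level form of the test of block usage, 2 of the 79 genes tested in the lists above were called, against 0.597% of 13063 genes. Both were named after their values were seen. Slbp, which encodes the histone stem-loop binding protein, had more of its counts in its most 3′ block in the siRNA-Eif4a3 libraries (log2 usage change 1.67, adjusted p 0.00646 by edgeR). That block had 93, 124 and 82 counts in siRNA-Eif4a3, against 10, 42 and 34 counts in siRNA-NC, and the groups did not overlap. The other 6 blocks of Slbp were between 1.45-fold and 2.32-fold lower in siRNA-Eif4a3. Skp1a, a subunit of the SCF ubiquitin ligases, was called for an 89-base block that was rarely counted in siRNA-NC. Block 4 of Skp1a had 78, 50 and 66 counts in siRNA-Eif4a3, against 10, 5 and 6 counts in siRNA-NC (log2 usage change 2.19, adjusted p 0.00704 by edgeR), while the most counted blocks of the gene differed by 1.13-fold or less. Of all blocks tested, 0.0785% were called.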
